A study of Mus musculus with 6 samples.

Results

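The genes described here are 9 nuclear factors of red cell development and Redrum, a long noncoding RNA known from mouse red cell precursors. They were read from every probe set that the array's annotation pairs with 1 gene symbol, that symbol being Gata1, Klf1, Tal1, Nfe2, Zfpm1, Lmo2, Ldb1, Bcl11a, Gfi1b or Redrum. This gave 17 probe sets for 10 genes, of 45037 probe sets and 18193 named genes on the array. Bone marrow of adult female F1 mice was compared between a pair of outcrosses, with 3 arrays for the cross (AKR/J x FVB/NJ)F1, here AKR F1, and 3 for the cross (DBA/2J x FVB/NJ)F1, here DBA F1. All mice carry 1 FVB/NJ parent and none is given a treatment in the labels, so the groups differ in their other inbred parent. The question was which transcripts differ at baseline between these genotypes. Whole marrow is a mixture, in which fewer cells of a type and less RNA per cell cannot be told apart, and nothing in the labels ties an array to an animal, so p-values cover only the spread among these samples, which may be technical.

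Red cells form in marrow from progenitors that switch on GATA1, which binds DNA at GATA sequences and needs the cofactor FOG1 (encoded by Zfpm1) for much of its action. GATA1 also works in a complex that joins the helix-loop-helix factor TAL1 through the bridging protein LMO2 to LDB1, which can pair with itself and so hold distant enhancers against promoters. KLF1 binds CACCC boxes of globin and other red cell genes, NF-E2 binds the globin control region as a dimer of its large subunit (Nfe2) with a small MAF protein, GFI1B is a repressor of red cell and platelet precursors, and BCL11A silences embryonic globin genes and is needed for B cells. GATA1, TAL1, FOG1, NF-E2 and GFI1B also act in platelet precursors, and GATA1 in mast cells and eosinophils.

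Most of these factors were higher in AKR F1 marrow. Read from the brightest probe set of each gene, 7 of the 10 genes were higher (Redrum, Zfpm1, Ldb1, Gata1, Nfe2, Gfi1b and Tal1), none was lower, and Klf1, Lmo2 and Bcl11a did not pass. A gene or probe set passes here where limma's moderated test, adjusted by Benjamini-Hochberg over all 45037 probe sets, gives an adjusted p of at most 0.05. Over the 17 probe sets 8 were higher and 1 was lower, against 5.57% and 6.73% of all probe sets, or 12.3% in either direction. Without AKR F1 replicate 2 or 3 the 9 calls became 5 and 4. Skeletal muscle markers, a 3' to 5' index and the hybridization controls also separated the crosses, and with each as a covariate 0, 1 and 0 of the 17 passed in limma (7, 7 and 6 higher and 1, 1 and 0 lower at an unadjusted p under 0.05). Most of the 17 are bright, with 15 above the median level. Of all probe sets above the median 21.1% passed (9.81% higher and 11.3% lower), and of those above the upper quartile 24.3% (11.6% higher and 12.8% lower). Of the brightest probe sets of all genes 13.1% passed, 7.9% as higher and 5.23% as lower. The median difference of the 10 genes was 0.64, against 0.06 over the brightest probe sets of all genes. The 10 genes and the lists below were chosen with earlier results of these data known, so such contrasts with all genes are a description. Each difference is the AKR F1 mean minus that of DBA F1 in log2 units, with its standard error (SE) from limma. The 3 AKR F1 arrays all lay above the 3 DBA F1 arrays in 8 of the 17, as in 18.1% of all probe sets, and below them in 2, against 14.9%, or 33.0% without overlap in either direction. Over the brightest probe sets of all genes these shares were 23.0%, 13.7% and 36.7%, above the median level 24.0%, 22.9% and 46.8%, and above the upper quartile 25.9%, 27.1% and 53.0%.

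**Figure D1:**
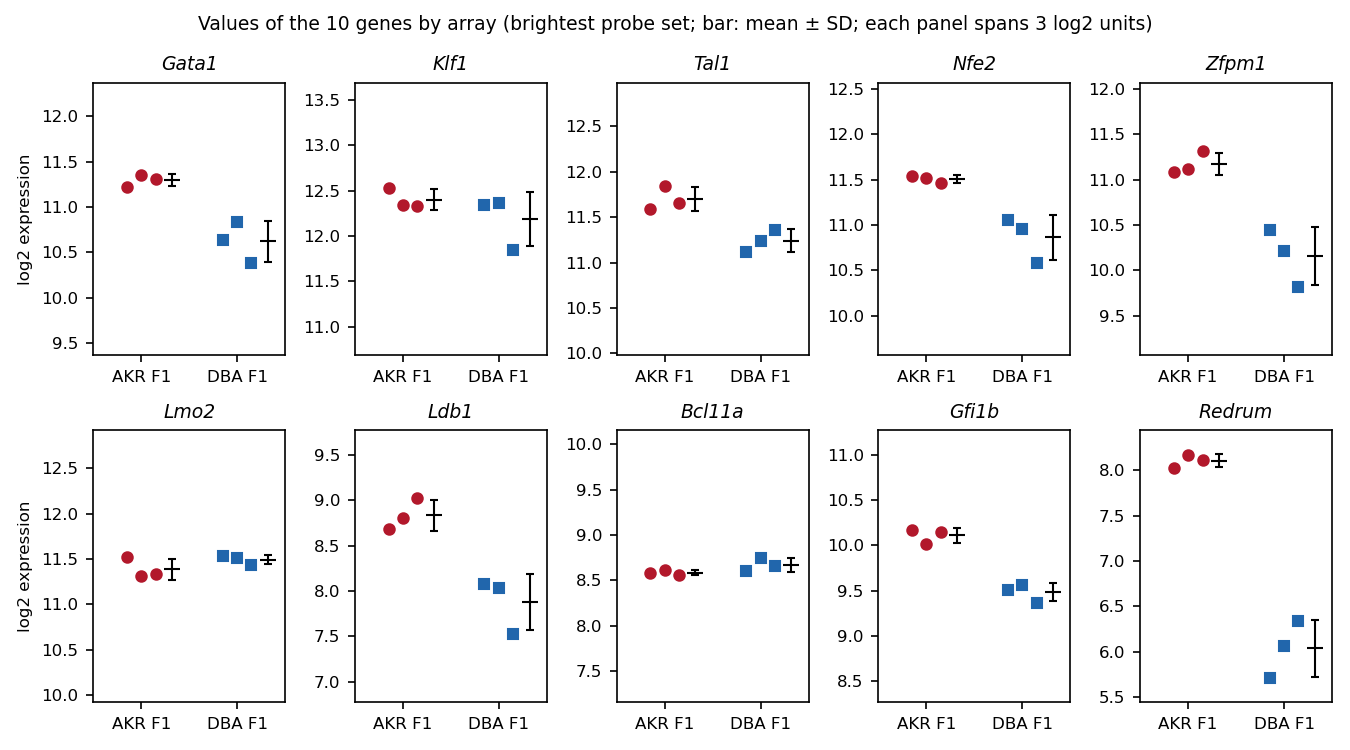
Log2 expression of the brightest probe set of each of the 10 genes in every array, AKR F1 (red circles) left of DBA F1 (blue squares), with the mean and SD (n = 3 each) as bars. Every panel spans the same number of log2 units. The groups are apart in 7 panels, with the widest gap in Redrum, and overlap in Klf1, Lmo2 and Bcl11a.

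Redrum had the largest difference. It was at 8.03, 8.17 and 8.12 in AKR F1 replicates 1 to 3, against 5.71, 6.06 and 6.33 in DBA F1 replicates 1 to 3. The gap between the lowest AKR F1 and the highest DBA F1 array was 1.69, wider than the range within either group. The difference was 2.07 (SE 0.15, adjusted p = 0.00056 in limma), a level 4.19-fold higher in AKR F1. Only 17 of the 45037 probe sets, Redrum included, had a difference as high, and 7 of the 18193 genes. It passed whichever of the 6 arrays was left out, with differences between 1.91 and 2.22. Redrum has a single probe set, and strain variants under its probes were not analysed here, so no second measurement stands beside this value.

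Redrum lies on chromosome 18, and the 3 measured genes on each side of it were read from the gene order of assembly GRCm38.p6. Its nearest measured neighbour on one side, Csnk1g3, which encodes a casein kinase, differed by -0.08 (SE 0.11). The nearest on the other side, Zfp608, a zinc finger protein gene, was higher by 0.49 (SE 0.12, adjusted p = 0.031 in limma). Of the others, Gramd3 differed by 0.28, Aldh7a1 by 0.05, Prdm6 by 0.04 and Cep120 by -0.25, and none of these passed. Redrum thus stood beside 1 neighbour that was higher and 5 that did not pass, where 13.1% of all genes passed in either direction.

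**Figure D2:**
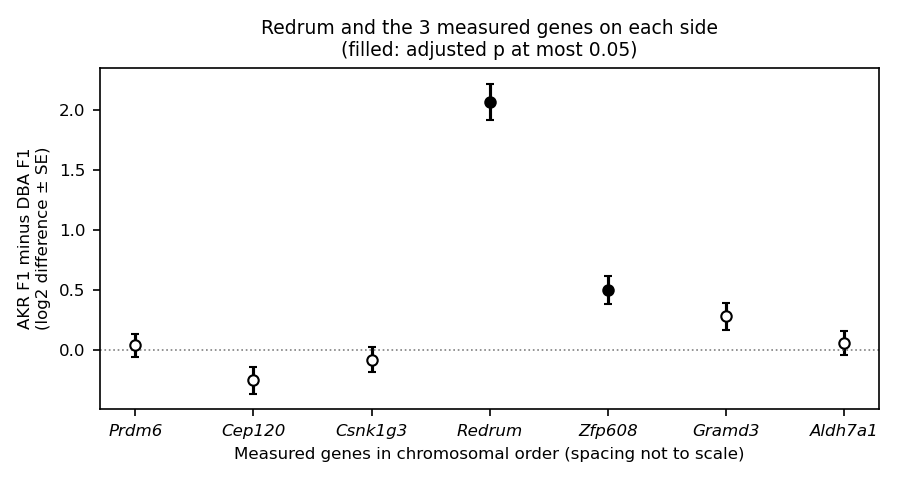
Log2 difference (AKR F1 minus DBA F1, ± SE) of Redrum and of the 3 measured genes on each side of it in chromosomal order, with filled symbols for an adjusted p of at most 0.05. Redrum is at 2.07, Zfp608 is the other filled symbol at 0.49, and the remaining 5 lie between -0.25 and 0.28.

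The genes whose values over the 6 arrays ran most like those of Redrum were ranked by Pearson's correlation among 11571 genes at or above the array median. They were Meaf6 (r = 0.997), Fech (0.995), Foxl2 (0.995), Prkra (0.992) and Alyref (0.992). Since the 6 arrays come from both crosses, any gene that separates them evenly has a high coefficient, and these values are a description. Fech, which encodes the enzyme that inserts iron into heme and also lies on chromosome 18, differed by 0.45, Meaf6 by 0.44 and the mRNA export factor gene Alyref by 1.71, while Foxl2 and Prkra differed by 0.18 and 0.19 and did not pass. Of 3 other long noncoding RNAs with a probe set, Dleu2 differed by -0.14, Neat1 by 0.10 and Malat1 by -0.25 in their brightest probe sets, and none of these passed. Of their 9 dimmer probe sets 0 were higher and 5 were lower in limma, where 5.57% and 6.73% of all probe sets were. The lower ones differed by -0.65 and -0.56 for Dleu2 and by -1.33, -1.04 and -0.75 for Malat1. Of the factors Tal1 had the highest coefficient with Redrum (0.955), Gfi1b had 0.932 and Gata1 0.886, and Klf1 had 0.373.

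Gata1, the X-linked gene of the factor that names the pathway, was at 11.22, 11.35 and 11.31 in AKR F1, against 10.64, 10.84 and 10.39 in DBA F1. The groups were apart by 0.38, and DBA F1 replicate 3 was the lowest array. The difference was 0.68 (SE 0.12, adjusted p = 0.014 in limma), or 1.60-fold. It stayed past the test without any 1 of the DBA F1 arrays or AKR F1 replicate 1, and had adjusted p = 0.058 and 0.061 without AKR F1 replicates 2 and 3. Its measured neighbours on the X chromosome, Hdac6 and Glod5, differed by 0.22 and -0.15 and did not pass.

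Zfpm1, the gene of the GATA1 cofactor FOG1, had the second largest rise. Its brighter probe set was at 11.08, 11.12 and 11.31 in AKR F1, against 10.44, 10.21 and 9.82 in DBA F1. Its dimmer probe set was at 9.04, 8.65 and 8.97 in AKR F1, against 7.77, 7.58 and 7.32 in DBA F1. Every AKR F1 array was above every DBA F1 array in both. The differences were 1.01 (SE 0.16, adjusted p = 0.0081 in limma) and 1.33 (SE 0.15, adjusted p = 0.0031 in limma), which are 2.02-fold and 2.51-fold. Both probe sets passed whichever array was left out. The annotation gives both the same source sequence, so they are not independent readings of the transcript.

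Of the complex around TAL1, Tal1 and Ldb1 passed as higher and Lmo2 did not pass. Tal1 was at 11.59, 11.85 and 11.65 in AKR F1, against 11.11, 11.24 and 11.36 in DBA F1. The arrays were apart by 0.23, and the difference was 0.46 (SE 0.11, adjusted p = 0.031 in limma). This is the weakest of the 7 calls: it was lost without AKR F1 replicate 2 or 3 or DBA F1 replicate 1 or 2 (adjusted p from 0.066 to 0.11) and after subtraction of the erythroid marker mean of each array (difference 0.44, adjusted p = 0.052). Ldb1 was at 8.68, 8.80 and 9.02 in AKR F1, against 8.08, 8.03 and 7.52 in DBA F1. With the groups 0.60 apart, it was higher by 0.96 (SE 0.16, adjusted p = 0.011 in limma), or 1.94-fold, and without AKR F1 replicate 3 it had adjusted p = 0.052. Lmo2, the bridge between them, was at 11.52, 11.31 and 11.33 in AKR F1, against 11.53, 11.51 and 11.44 in DBA F1. These values overlap, and the difference was -0.11 with a 95% interval from -0.32 to 0.11. That interval excludes a rise as large as that of Tal1 or Ldb1, while the difference between the genes was not tested.

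Neighbours of these genes were read in the same way. Pdzk1ip1, next to Tal1 on chromosome 4, was higher by 0.95 (SE 0.09, adjusted p = 0.0014 in limma), while Stil on the other side differed by 0.19 and did not pass. Gcdh beside Klf1 and Gtf3c5 beside Gfi1b were both higher by 0.64. These were the 3 that passed among 18 neighbours of the 9 factor genes, all of them higher, where 7.9% of all genes were higher.

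The regulatory sequence just around the start of these genes was taken from RefSeq (build GRCm38.p6), in windows of 250 bases before and 50 after each start. The table holds 10 such windows for 7 of the 10 genes. They were searched on both strands for AGATAA (bound by GATA factors), CAGNTG (an E-box bound by TAL1 dimers), CCACACCC (bound by KLF1) and TGAGTCA (the core bound by NF-E2). AGATAA was found in 2 of the 10 windows, 1 of Tal1 and 1 of Ldb1, against 11.2% of 32851 windows of all genes. CAGNTG was in 3 of the 10, against 51.4%, and CCACACCC and TGAGTCA in none, against 3.56% and 5.20%. A match is only a run of letters, and its absence says only that these letters are not in this window. Only these exact runs were searched, so other GATA sequences and CACCC boxes are neither counted nor marked. Examples are TGATAA in the Gfi1b window, TTATCA in the Klf1 window and CCACCC in the Gata1 window. Tal1 and Ldb1 each have more than 1 window, and their other windows hold none of the motifs. The windows of Gata1, Gfi1b and Zfpm1, which were also higher, hold none of these exact runs either. Shown are the 1 Tal1 window and the 1 Ldb1 window with AGATAA, picked for that match. Those of Gata1, which was higher, and of Klf1, which did not pass, are also shown. Capitals mark AGATAA (or TTATCT on the other strand) and CAGNTG matches, and no matches overlap in these windows.
Tal1, chr4:115056176-115056475, plus strand: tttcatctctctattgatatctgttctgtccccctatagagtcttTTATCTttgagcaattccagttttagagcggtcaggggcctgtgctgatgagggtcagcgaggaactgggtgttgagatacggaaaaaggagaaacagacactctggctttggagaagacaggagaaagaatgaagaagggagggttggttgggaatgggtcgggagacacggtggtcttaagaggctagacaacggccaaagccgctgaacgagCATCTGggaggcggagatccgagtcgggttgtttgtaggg
Ldb1, chr19:46037021-46037320, minus strand: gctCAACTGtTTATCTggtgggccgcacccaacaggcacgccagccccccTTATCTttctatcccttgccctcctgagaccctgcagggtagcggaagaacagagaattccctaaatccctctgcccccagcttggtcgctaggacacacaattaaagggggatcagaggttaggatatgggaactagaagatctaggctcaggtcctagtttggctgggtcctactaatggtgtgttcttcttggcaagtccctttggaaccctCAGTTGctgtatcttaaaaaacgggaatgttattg
Gata1, chrX:7967861-7968160, minus strand: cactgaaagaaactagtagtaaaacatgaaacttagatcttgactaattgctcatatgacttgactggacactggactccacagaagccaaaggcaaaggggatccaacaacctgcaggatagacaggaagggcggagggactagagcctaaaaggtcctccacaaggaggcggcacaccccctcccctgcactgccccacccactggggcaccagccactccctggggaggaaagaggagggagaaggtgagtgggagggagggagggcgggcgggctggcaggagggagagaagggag
Klf1, chr8:84901732-84902031, plus strand: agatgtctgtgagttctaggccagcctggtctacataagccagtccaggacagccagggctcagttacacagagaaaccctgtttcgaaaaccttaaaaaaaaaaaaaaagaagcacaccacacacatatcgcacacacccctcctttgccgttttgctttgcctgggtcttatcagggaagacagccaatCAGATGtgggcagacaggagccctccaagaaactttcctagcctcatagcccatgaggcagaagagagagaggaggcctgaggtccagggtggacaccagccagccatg
In the Tal1 window the AGATAA match begins 205 bases before the start of the transcript, and in the Ldb1 window the pair begin 240 and 200 bases before it. The Klf1 window has 1 CAGNTG match, 59 bases before the start.

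Of the other DNA-binding factors, Nfe2 and Gfi1b were higher and Klf1 did not pass. Nfe2 was at 11.54, 11.51 and 11.46 in AKR F1, against 11.05, 10.95 and 10.58 in DBA F1, and was higher by 0.64 (SE 0.13, adjusted p = 0.018 in limma). Gfi1b was at 10.17, 10.02 and 10.15 in AKR F1, against 9.51, 9.57 and 9.37 in DBA F1, and was higher by 0.63 (SE 0.10, adjusted p = 0.0076 in limma). Both are about as large a rise as that of Gata1, at 1.56-fold and 1.55-fold, and neither gene's groups overlap. Gfi1b passed whichever array was left out, while Nfe2 had adjusted p = 0.067 and 0.064 without AKR F1 replicates 2 and 3. Klf1 was at 12.53, 12.34 and 12.33 in AKR F1, against 12.34, 12.37 and 11.84 in DBA F1. All arrays but DBA F1 replicate 3 were close together, and the difference of 0.21 (95% interval from -0.13 to 0.56) did not pass and was 0.04 without that array.

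That array was also the lowest of its group in 5 of the 7 genes that were higher, namely Gata1, Nfe2, Zfpm1, Ldb1 and Gfi1b, and the highest of its group in Tal1 and Redrum. Without it 8 of the 9 called probe sets still passed, all of them higher, and the call lost was the lower one of Bcl11a.

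Bcl11a went no clear way. It has 7 probe sets, whose differences ran from -0.44 to 0.06, with 5 below and 2 above 0. The brightest was at 8.58, 8.61 and 8.56 in AKR F1, against 8.60, 8.75 and 8.65 in DBA F1 (difference -0.08, 95% interval from -0.28 to 0.11). One probe set, 1456632_at, was at 8.14, 8.16 and 8.12 in AKR F1, against 8.38, 8.53 and 8.68 in DBA F1, and passed as lower (difference -0.39, SE 0.10, adjusted p = 0.040 in limma). A further one, 1457072_at, also had every AKR F1 array below every DBA F1 array (difference -0.34, adjusted p = 0.070 in limma). The call of 1456632_at was kept without DBA F1 replicate 1 and lost without any other array, and was lost under quantile normalization and with the replicate number as a block (adjusted p = 0.063 and 0.062). A pair of the probe sets, 1447334_at and 1447335_x_at, derive from 1 source sequence, and the suffix of the second marks probes shared with other sequences.

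**Figure D3:**
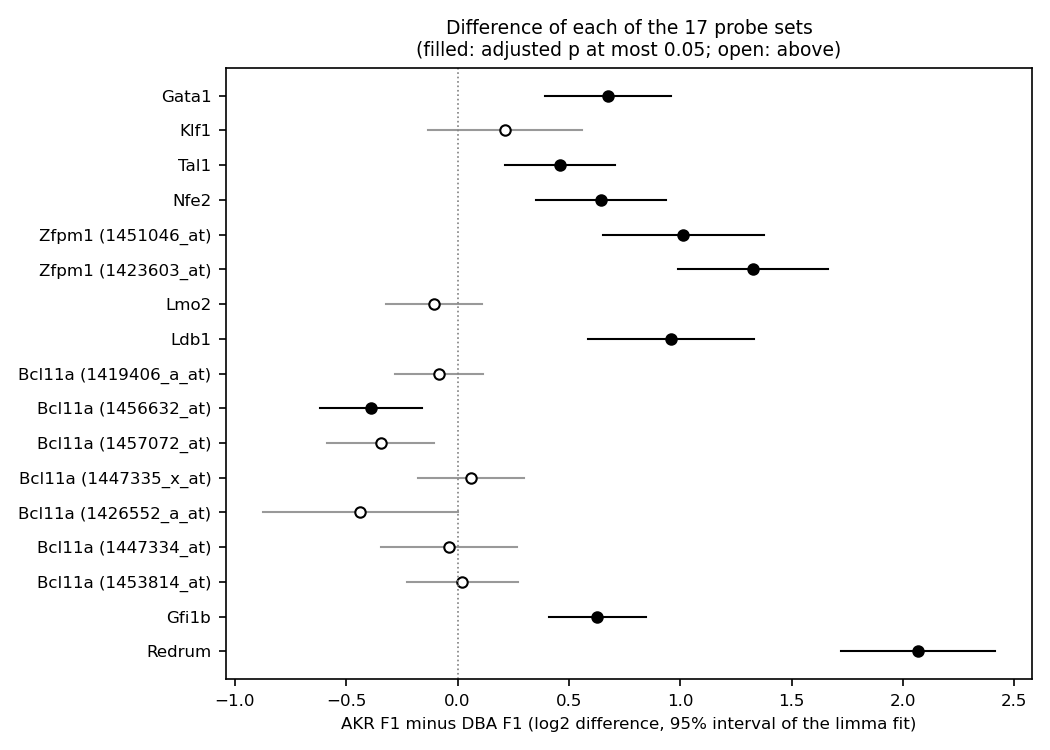
Log2 difference (AKR F1 minus DBA F1) of each of the 17 probe sets with its 95% interval, grouped by gene, with filled symbols for an adjusted p of at most 0.05. The 8 filled symbols on the right are Gata1, Tal1, Nfe2, both of Zfpm1, Ldb1, Gfi1b and Redrum at 2.07, and the filled symbol on the left is a probe set of Bcl11a at -0.39.

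Calls among partners and coregulators of these factors went in both directions, in numbers near the shares over all features. Of 44 measured, read from their brightest probe sets, 6 were higher and 3 lower, while 35 did not pass. Their median difference was 0.03, and 6 of 44 higher stand against 7.9% of all genes and 3 of 44 lower against 5.23%. All 44 are above the median level, where 9.81% of probe sets were higher and 11.3% lower, so neither count is read as a result about partners. E2f4, a cell cycle factor required for red cell maturation in mice, was higher by 0.91 (SE 0.11, adjusted p = 0.0044 in limma), with AKR F1 arrays at 8.97 ± 0.18 and DBA F1 arrays at 8.06 ± 0.07 (mean ± SD, n = 3 each). Mta2 and Mta1, subunits of the NuRD complex that FOG1 recruits, were higher by 0.74 and 0.65, and Cbfa2t3, a corepressor of the TAL1 complex, by 0.47. Ssbp3 and Ssbp4, which bind and stabilise LDB1, were higher by 0.57 and 0.76. Averaging a gene's probe sets gave 6 higher and 5 lower genes. Over the 79 dimmer probe sets of the partners 3 were higher and 8 were lower, where 5.57% and 6.73% of all probe sets were. No share over dimmer probe sets alone was taken, and these counts are not read as a result about the partners. The 8 lower ones include sets of Rbbp4 (-1.43 and -0.85) and Chd4 (-1.13), both genes of NuRD subunits, of the glucocorticoid receptor gene Nr3c1 (-1.55 and -0.41), of the coactivator gene Crebbp (-0.97) and of Tcf12 (-0.69). By gene means the lower genes were Chd4, Hdac2, Nr3c1, Rbbp4 and Rcor1, and the higher ones E2f4, Klf13, Mta2, Ssbp2, Ssbp3 and Ssbp4. Mta1 and Cbfa2t3 thus lost their call. Their dimmer probe sets did not pass, with differences of -0.20 for Mta1 and 0.06, 0.10 and 0.37 for Cbfa2t3. The brightest probe set of Ssbp2, a relative of Ssbp3, differed by -0.03, but another, 1429951_at, averaged 5.37 in AKR F1 against 3.003 in DBA F1 (difference 2.36, adjusted p = 8.2e-05 in limma) and was chosen after its values were seen, with DBA F1 below the lower quartile of the arrays. Read from brightest probe sets, the 3 lower genes were Bach1 (-0.37), Tcf12 (-0.48) and the histone deacetylase gene Hdac2 (-0.33). Bach1 encodes a heme-sensing repressor that competes for NF-E2 sites, and Tcf12 an E protein partner of TAL1. Of the 3 only Hdac2 was also lower by gene means. Klf13 (0.47), Nr3c1 (-0.38) and Stat5a (0.41) came closest among those that did not pass. Without AKR F1 replicate 2 or 3 the calls numbered 4 and 2, and without DBA F1 replicate 2 or 3 they numbered 5 each, all higher. With the index of 3' to 5' difference, hybridization controls or muscle mean as a covariate none passed in limma (6, 5 and 7 higher and 3, 2 and 3 lower at an unadjusted p under 0.05).

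Genes known as targets of these factors passed in 1 direction only when read from their brightest probe sets. Of 40 measured, 16 were higher and 24 did not pass, with no gene lower, against 7.9% higher among all genes, and the median was 0.23. Of the 40, 39 are above the median level, where 9.81% of probe sets were higher and 11.3% lower. At an unadjusted p under 0.05 in limma 18 were higher and 1 was lower. Cpox and Ppox, enzymes of heme synthesis, were higher by 1.17 (adjusted p = 0.0085 in limma) and 0.67, and Fech, the last enzyme, by 0.45. Icam4, which encodes an adhesion protein of the red cell surface, was higher by 0.72 (SE 0.10, adjusted p = 0.0057 in limma), Dmtn, a protein of the membrane skeleton, by 0.78, and Bcl2l1, the survival gene of late red cell precursors, by 0.76. Epor, the erythropoietin receptor gene, was higher by 0.66, and Alas2, the first enzyme of red cell heme synthesis, by 0.35. Slc4a1, the anion exchanger (0.31), Cdkn1b (0.35) and Trak2 (-0.19) came closest among the rest. Leaving out AKR F1 replicate 1, 2 or 3 left 10, 3 and 2 calls. With the index of 3' to 5' difference, hybridization controls or muscle mean as a covariate none of the 16 passed in limma (12, 13 and 7 genes higher and 0, 0 and 2 lower at an unadjusted p under 0.05). In another reading, averaging a gene's probe sets gave 8 higher and 3 lower genes. Of the higher genes named above, Cpox, Icam4, Bcl2l1, Epor and Alas2 kept their call, while Ppox, Fech and Dmtn lost it. The dimmer probe sets of Fech differed by 0.25, -0.30 and 0.25 and those of Dmtn by 0.005 and -0.22, none past the test. Those of Ppox differed by -0.25, which did not pass, and by 0.34, which passed as higher.

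The 3 lower genes by that average were Tfrc, Trak2 and Epb42. Tfrc, the transferrin receptor by which precursors take up iron, had a difference of -0.12 in its brightest probe set, while the others passed as lower, with differences of -1.43 and -2.16. Of the array's own control sets for this transcript, the 3' set differed by -1.37, the middle set by -1.73 and the 5' set by -2.20. Epb42, a protein under the red cell membrane, passed as lower in its dimmer probe set (difference -0.71) and not in the brighter one. Over the 43 dimmer probe sets of the target genes 10 were higher and 5 were lower, where 5.57% and 6.73% of all probe sets were.

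Markers of the red cell lineage itself had close mean levels when read from their brightest probe sets. The 12 measured markers, which include Slc4a1, Rhag, Kel, Hemgn and Tfrc, are all also on the list of 40 targets, whose other 28 genes hold 15 of the 16 calls. The markers had a mean level between 12.18 and 12.27 in AKR F1 and between 12.13 and 12.29 in DBA F1. Only Alas2 was higher, none was lower (2 and 0 at an unadjusted p under 0.05 in limma), and the median difference was -0.01. Of the 5 dimmer probe sets of these markers 3 were lower, those of Tfrc and Epb42 given above. After subtraction of the mean of the brightest marker probe sets from each array, 8 of the 17 factor probe sets passed, 7 higher and 1 lower. Redrum then differed by 2.05 (adjusted p = 9.4e-05 in limma). That mean differed by only 0.016 between the groups, so its subtraction moves each difference by no more than this. The part of red cell content in the differences was not tested. Of the proliferation markers 0 of 13 passed (0 higher and 2 lower at an unadjusted p under 0.05 in limma). These and the following marker counts, read from brightest probe sets, stand against 7.9% of all genes higher and 5.23% lower. Counts of dimmer probe sets in this paragraph stand against 5.57% of all probe sets higher and 6.73% lower. Among other cells that use these factors, 1 of 12 megakaryocyte and platelet markers was higher, Gp9 by 0.59, with list means of 10.48 to 10.74 in AKR F1 and 10.27 to 10.67 in DBA F1. Both dimmer probe sets of Selp, the P-selectin gene of platelets and endothelium, were lower (-1.78 and -2.60), while its brightest differed by -0.002. Of 13 mast cell, basophil and eosinophil markers 1 was higher, Hdc by 0.69, with list means of 8.49 to 8.64 in AKR F1 and 8.30 to 8.59 in DBA F1. A dimmer probe set of Ms4a2, a chain of the IgE receptor, was lower (-1.09). Macrophage markers had 5 of 12 higher and none lower, with list means of 8.95 to 9.21 in AKR F1 and 8.80 to 8.87 in DBA F1. The 5 were the C1q chain genes C1qa (0.65), C1qb (0.75) and C1qc (0.95), with Marco (0.88) and Mertk (0.40). Of the markers of the macrophages that nurse red cell precursors 1 of 10 was higher, Epor, and Klf1 is itself on that list. Of the 11 dimmer probe sets of macrophage markers 3 were lower and none was higher, namely both of Vcam1 (-0.73 and -1.001), an adhesion molecule that is on both macrophage lists, and 1 of the chemokine receptor gene Ccr2 (-1.74). The 10 of the nursing macrophage list held the same lower pair and 1 higher set, of the factor gene Maf (0.59).

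**Figure D4:**
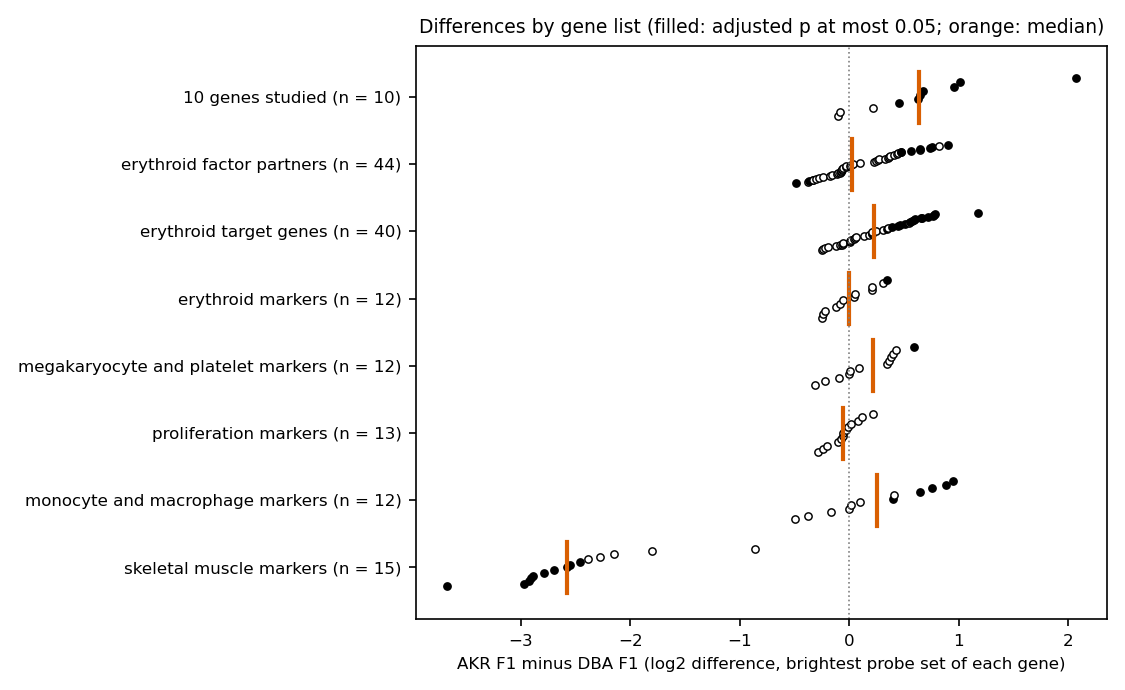
Log2 difference (AKR F1 minus DBA F1) of each gene of a list, from its brightest probe set, with filled symbols for an adjusted p of at most 0.05 and the list's median in orange. The 10 genes studied have a median of 0.64, the 40 target genes 0.23, the 12 erythroid markers -0.01 and the 15 skeletal muscle markers -2.58.

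Several measures of the samples moved with the genotypes. Of 15 skeletal muscle markers 10 were lower in AKR F1 and none higher, and their mean level was 6.67 to 7.93 in AKR F1 and 8.60 to 11.33 in DBA F1. An index of the 3' minus 5' difference over control transcripts was 1.25 to 2.03 in AKR F1 and 1.03 to 1.23 in DBA F1. It averages the mouse transcripts of actin and Gapdh with the bacterial controls dap, lys, phe and thr, so it does not describe marrow RNA alone. Of the mouse sets, actin differed by -0.35 at the 3' end and -0.68 at the 5' end, and Gapdh by 0.11 and -0.38. The 5' values of both overlap between the groups. The control sets of the Tfrc transcript, given above, are not part of the index. Hybridization controls, added in fixed amount during processing, were at 10.41 to 10.61 in AKR F1 and 10.96 to 11.33 in DBA F1. With the 3' to 5' index as a covariate 1 of the 17 factor probe sets passed, Redrum (difference 2.08, adjusted p = 0.035 in limma). With the hybridization controls or the muscle mean none passed in limma, with 6 and 7 higher, and 0 and 1 lower, at an unadjusted p under 0.05. All 9 called probe sets kept their sign in these fits, in which the median SE was 1.62 (index), 2.62 (hybridization controls) and 1.85 (muscle) times its value without the covariate. The part of these measures in the differences was not tested. Lower quartiles of the arrays lay between 3.68 and 3.75 and upper ones between 7.34 and 7.43, and 3 arrays a group limit the precision of every value.

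**Figure D5:**
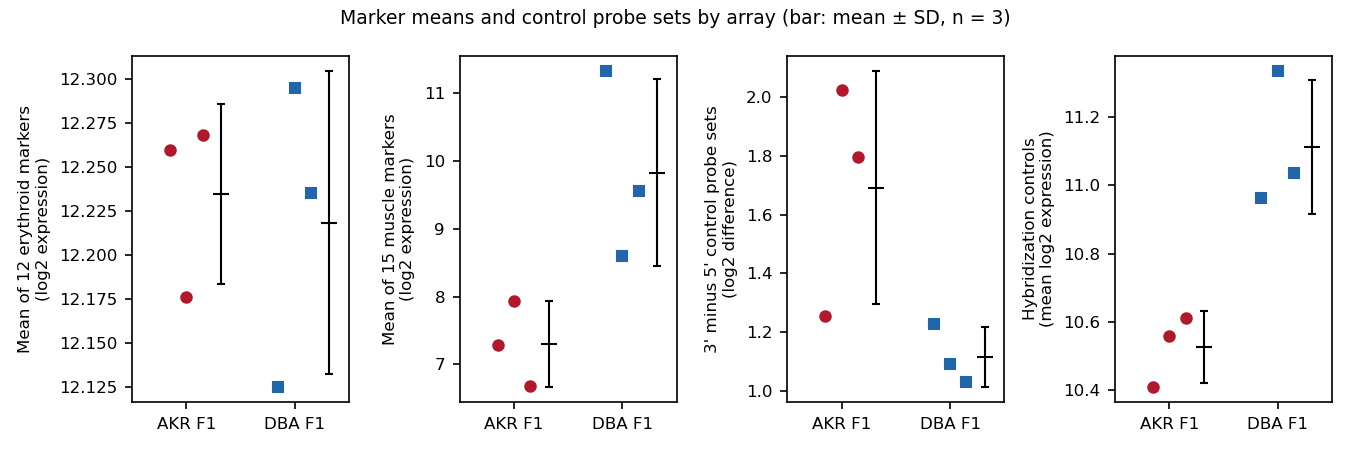
Mean log2 level of 12 erythroid and 15 skeletal muscle markers, the 3' minus 5' log2 difference of control probe sets, and the mean log2 level of the hybridization controls in each array, AKR F1 (red circles) left of DBA F1 (blue squares), with mean ± SD as bars (n = 3 each). The axes do not start at 0. The erythroid means overlap within 12.13 to 12.29, while the other 3 measures separate the groups.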

How the data were processed

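Bone marrow RNA of 6 samples, extracted with Trizol from snap-frozen tissue, was hybridised to 1 Affymetrix array each, per the labels' protocols. The authors deposited log2 expression values. RMA and MAS5 appear in the submitters' processing notes, but no source used here says which of them made the values, or gives scan dates or batches. Quartiles are nearly equal between arrays, so normalization preceded deposit, and the values were used as they stand.

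Sample titles gave groups and replicate numbers. After removal of 64 control probe sets, 45037 were tested; the platform annotation pairs 34945 with 1 symbol, 932 with several and 9160 with none. The test was limma 3.58.1 (lmFit and eBayes, two-sided, 4 residual degrees of freedom) in R 4.3.3, checked on simulated data. Genes on lists were read from the probe set with the highest mean over all arrays. RefSeq's table for GRCm38.p6 gave chromosome and gene order.

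The members and lists were chosen with earlier results of these data known. Named are every probe set of the 10 genes, the 5 genes most like Redrum, and neighbours. From the lists of partners, targets and long noncoding RNAs up to 6 genes past the test in each direction and 3 others are named. Marker lists have only some of their genes named. Epor, Alas2 and all dimmer probe sets named for lists were added after their values were seen. Lists of stem and progenitor cells, B cells, neutrophils and T and NK cells had 12, 11, 13 and 9 measured genes. Of these 0, 1, 1 and 3 were higher and 1, 2, 0 and 1 lower in limma. Of their dimmer probe sets 2 of 14, 3 of 8, 0 of 1 and 0 of 5 were lower. The shares over all genes and all probe sets are those given for the other markers. Of 9 long noncoding RNAs listed, 4 had a probe set.

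The alternatives comprised another normalization (quantile or median centring), leaving out dim probe sets or single arrays, a trended robust variance, weighting of arrays, a replicate block, a fit on 1 probe set per gene or on gene means, a stricter threshold (0.01), covariates, and scaling to erythroid markers.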

Additional observations from a re-analysis of the deposited data

How the results depend on the processing

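Redrum kept its direction and its call in all alternatives run except with the hybridization controls (2.33, adjusted p = 0.22 in limma) or the skeletal muscle mean (1.76, adjusted p = 0.057 in limma) as a covariate, and lay between 1.91 and 2.22 when 1 array was left out. In the main fit 5541 of all 45037 probe sets passed, and with 1 probe set per gene 2771 of 18193. At a threshold of 0.01 the number was 1214 of 45037. In covariate fits it was 112 with the 3' to 5' index, 5 with hybridization controls and 83 with the muscle mean. It ran from 1683 to 5581 when 1 array was left out. For the 17 factor probe sets these covariates gave 1, 0 and 0, the stricter threshold 4, and leaving out 1 array 4 to 8, with 5 and 4 without AKR F1 replicates 2 and 3. For partners and for targets each covariate gave 0 in limma, the stricter threshold 2 each, and leaving out 1 array 2 to 10 and 2 to 14. At an unadjusted p under 0.05 the 3 covariate fits had 6, 5 and 7 partners and 12, 13 and 7 targets higher, and 3, 2 and 3 partners and 0, 0 and 2 targets lower. For the long noncoding RNAs the hybridization controls and the muscle mean gave 0 in limma (1 higher each at an unadjusted p under 0.05), averaging a gene's probe sets 3, of which 2 (Dleu2 and Malat1) were lower, and leaving out 1 array 1 throughout.

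Of the differences of single probe sets, 10 of 297 changed sign, none of them of a called probe set: with the 3' to 5' index Lmo2 was at 0.036, and of the Bcl11a probe sets 1447334_at was at 0.23 and 1453814_at at -0.034; with hybridization controls 1419406_a_at was at 0.083 and 1447335_x_at at -0.17; with the muscle mean 1453814_at was at -0.098. Leaving out 1 array gave -0.15 to 0.075 for 1447334_at and -0.060 to 0.10 for 1453814_at. The covariate fits lose 1 residual degree of freedom and have larger SE, and the cause of the other changes was not tested.

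Arrays with the same replicate number did not deviate together (correlations of 0.05, 0.02 and 0.08 for numbers 1 to 3), so the number is not taken as a pairing. With the replicate block 5321 probe sets passed in all, 8 of the 17 factor probe sets, 7 partners, 13 targets and 1 long noncoding RNA, and Redrum differed by 2.07 (adjusted p = 0.00089 in limma).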
